A study of Mus musculus with 12 samples.

Results

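Ifitm1, Ifitm2 and Ifitm3 are neighbouring mouse genes for interferon-induced transmembrane proteins, and their transcripts were followed here in regulatory T cells (Treg) with and without the transcription factor Ikaros. The members are 3 of the 36222 genes in the table and were taken by gene name, each name matching a single gene identifier. They were chosen on values from these same libraries, namely the cKO against WT differences of Ifitm2 and Ifitm3 ex vivo and after stimulation. Those differences are therefore given as a description, without a test.

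The study deleted Ikzf1, the gene for Ikaros, in Treg to ask how the Treg gene programme depends on it. Total CD4+ T cells of individual mice were sorted for YFP+ Treg, which the labels place in the spleen, giving 12 RNA libraries, 3 for each of 4 groups. The paper's methods name spleen and lymph nodes as the source of purified Treg. WT Treg came from Foxp3-YFP-Cre mice, and cKO Treg came from mice that also carried floxed Ikzf1 (Ikzf1-fl-Foxp3-YFP-Cre), so WT and cKO cells alike expressed Cre and YFP from the Foxp3 locus. Each genotype was sampled ex vivo and after 4 h of activation by antibodies to CD3 and CD28 fixed to the plate (1 µg/ml of either), and the ex vivo mice were 6 to 8 weeks old. Foxp3 drives the Cre, so Ikzf1 is deleted in cells that express Foxp3, and the other cells of the cKO mice keep it.

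IFITM proteins are small membrane proteins that hinder the entry of many enveloped viruses by making the fusion of virus and cell membranes less likely. IFITM2 and IFITM3 sit mainly in endosomes, while IFITM1 is found more at the cell surface. Their genes are classical targets of type I and type II interferon, although many cell types also make them without added interferon.

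In these data Ifitm2 and Ifitm3 were low in WT Treg, stood about an order of magnitude higher in cKO Treg ex vivo, and were also higher in cKO than in WT Treg after stimulation. Ifitm1, which lies between them on the chromosome, stayed at a few TPM in all 4 groups. In cKO Treg Ifitm2 was lower after stimulation than ex vivo. Of 49 interferon-stimulated genes tested beside them 2 (4.08%) were called higher and 5 (10.2%) lower in cKO ex vivo, against 3.62% and 1.67% of all genes. After stimulation 22 (44.9%) were called higher and 2 (4.08%) lower, against 3.3% and 3.63%. These counts rest on the scaling and the filter.

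The members share 1 cluster on mouse chromosome 7 (mm9, gene models of GENCODE vM1) that spans 55934 bp. Ifitm2 (ENSMUSG00000060591, chr7:148140736-148141882, minus strand) has 2 exons and 651 exonic bases. Ifitm1 (ENSMUSG00000025491, chr7:148153120-148155724, plus strand) has 3 exon blocks and 1094 exonic bases, and it lies between the other two. Ifitm3 (ENSMUSG00000025492, chr7:148195485-148196669, minus strand) has 2 exons and 678 exonic bases. No other annotated gene overlaps any of the members.

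The members' coding sequences are alike, which bears on how reads can be assigned to them. Over aligned coding bases Ifitm2 and Ifitm3 are 80.8% identical, Ifitm1 and Ifitm3 81.9%, and Ifitm1 and Ifitm2 81.6%. The longest stretch that Ifitm2 and Ifitm3 share without a mismatch is 69 bases (coding bases 130 to 198 of Ifitm2, in its first exon at chr7:148141617-148141685 and in the first exon of Ifitm3 at chr7:148196344-148196412), longer than a 51-base read. It is shown because a read that lies wholly within it fits both genes equally well:
Ifitm2 and Ifitm3, shared coding stretch: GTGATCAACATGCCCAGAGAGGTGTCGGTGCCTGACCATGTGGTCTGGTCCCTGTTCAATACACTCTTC

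Such stretches make up a small part of each gene. Of all 51-base windows within exons, 19 of 551 in Ifitm2 (3.45%), 33 of 578 in Ifitm3 (5.71%) and 14 of 944 in Ifitm1 (1.48%) also occur in another gene of the family. Windows that occur only once in the genome make up 72.1% of Ifitm2, 90.1% of Ifitm3 and 83.1% of Ifitm1. The sources used here do not state how reads matching several places were treated. The 3 genes are therefore also given as a sum of TPM.

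Since Ifitm2 and Ifitm3 were both far higher in cKO and Ifitm1 was low in every group, the promoter of each is shown. The sequences are RefSeq promoters of GRCm38.p6, each found exactly once on mm9 chromosome 7, printed 5′ to 3′ on the gene's strand from 150 bases before the RefSeq start to 30 bases after it. Base 1 is the first transcribed base. The RefSeq start lies inside the GENCODE model, by 22 bases for Ifitm2, 26 for Ifitm3 and 855 for Ifitm1, whose annotation has several first exons. Capitals mark the fixed letters of 3 motifs searched on both strands over the 300 bases from 250 before the start to 50 after it, namely the interferon response element core GAAANNGAAA, the STAT element TTCNNNGAA and the Ikaros core TGGGAA. The windows are Ifitm2 (chr7:148141831-148142010, minus strand), Ifitm3 (chr7:148196614-148196793, minus strand) and Ifitm1 (chr7:148153825-148154004, plus strand):
Ifitm2: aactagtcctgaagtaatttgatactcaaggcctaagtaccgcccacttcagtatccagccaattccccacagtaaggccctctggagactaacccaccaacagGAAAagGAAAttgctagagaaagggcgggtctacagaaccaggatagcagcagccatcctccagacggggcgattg
Ifitm3: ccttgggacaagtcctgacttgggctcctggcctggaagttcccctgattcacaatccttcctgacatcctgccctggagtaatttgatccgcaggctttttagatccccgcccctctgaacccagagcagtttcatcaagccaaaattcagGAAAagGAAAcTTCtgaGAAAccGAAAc
Ifitm1: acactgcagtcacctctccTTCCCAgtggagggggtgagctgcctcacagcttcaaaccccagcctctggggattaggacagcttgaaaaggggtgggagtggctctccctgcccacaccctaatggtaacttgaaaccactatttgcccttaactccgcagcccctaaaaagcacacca

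Ifitm2 and Ifitm3 both carry the interferon element, and Ifitm1 carries none in this window. Ifitm2 holds GAAAAGGAAA from base -46. Ifitm3 holds the same 10 letters from base 3 and GAAACCGAAA from base 20, with the STAT element TTCTGAGAA from base 14 overlapping the latter. Ifitm1 holds the Ikaros core TGGGAA on the other strand (TTCCCA, from base -131), and these letters are in neither the Ifitm2 nor the Ifitm3 window. The paper gives the shorter GGGAA as the Ikaros core, which was not searched. Its letters occur on the other strand (TTCCC) in each of the printed windows. Among 32851 mouse promoters of the same length, 3.44% hold the interferon element, 8.3% the STAT element and 25.6% the Ikaros core. These matches describe the letters only and show no binding.

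The libraries held 8208659 to 20247649 reads assigned to genes, the stimulated cKO libraries being the shallowest (8208659 to 10930376). Ikzf1 was lower in every cKO library than in every WT library of the same condition, at 38.8 to 44.3 against 83.8 to 125 TPM ex vivo and at 17.04 to 31.6 against 66.4 to 83.4 TPM after stimulation. A single gene model, Gm10800, took 17.7% to 55.9% of a library's TPM and most in stimulated cKO, which lowers the deposited TPM of every other gene there. Differences on the log2 scale were therefore taken after scaling the libraries to each other. Xist was at 179 TPM in WT ex vivo replicate 3 and at no more than 1.36 TPM elsewhere, so that library came from a female and the others from males.

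Ifitm2 was the most abundant of the members. The ex vivo WT libraries held 9.02, 6.69 and 9.45 TPM of it, and the ex vivo cKO libraries 97.8, 101.9 and 116 TPM. Among stimulated libraries, WT held 9.97, 6.93 and 11.4 TPM, while cKO held 63.2, 57.7 and 34.2 TPM. Every cKO library lay above every WT library in both conditions, and the lowest cKO library (34.2 TPM) still held more Ifitm2 than the highest WT library (11.4 TPM). The ex vivo means were 8.39 ± 1.48 TPM (WT) and 105 ± 9.60 TPM (cKO), and the stimulated means 9.42 ± 2.27 and 51.7 ± 15.4 TPM (SD, n = 3 each). The ratio of the means was 12.6 ex vivo and 5.49 after stimulation. On the scale of log2(scaled TPM + 1) the cKO minus WT difference was 3.28 (SE 0.14) ex vivo and 2.59 (SE 0.14) after stimulation.

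Ifitm3, the member best known for blocking influenza virus, followed the same pattern at a lower level. The ex vivo WT libraries had 3.94, 1.93 and 5.09 TPM of this transcript, and the ex vivo cKO libraries 41.4, 42.1 and 37.6 TPM. Stimulated WT libraries had 5.95, 3.70 and 2.43 TPM, and stimulated cKO libraries 36.5, 24.2 and 18.2 TPM. The genotypes did not overlap in either condition, and the cKO ex vivo libraries were close together. The means were 3.65 ± 1.60 against 40.4 ± 2.44 TPM ex vivo and 4.03 ± 1.79 against 26.3 ± 9.36 TPM after stimulation (SD, n = 3 each), that is ratios of 11.1 and 6.53. The log2 difference was 3.01 (SE 0.27) ex vivo and 2.70 (SE 0.27) after stimulation.

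Ifitm1 had the lowest mean of the members in every group. Ex vivo, WT libraries contained 1.27, 0.896 and 1.85 TPM and cKO libraries 2.11, 3.65 and 3.64 TPM. Once stimulated, WT libraries contained 2.50, 2.57 and 3.01 TPM and cKO libraries 3.08, 1.65 and 4.09 TPM. Each value rests on 9 to 46 reads. Ex vivo the cKO libraries lay above the WT libraries, whereas after stimulation the genotypes overlapped. The log2 differences were 0.66 (SE 0.30) ex vivo and 0.27 (SE 0.30) after stimulation, the latter -0.038 without cKO stimulated replicate 3, 0.52 without cKO stimulated replicate 2 and 0.026 with the 1 TPM filter. Ifitm1 stayed under the 5 TPM that a gene had to reach in its highest group to be tested, so these differences have no test in the fit.

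For scale, 1716 genes of olfactory and vomeronasal receptors, which Treg are not known to use, had a median of 0.667 TPM in WT ex vivo and 1.04 TPM in cKO stimulated, with 95th percentiles of 1.54 and 2.04 TPM. The Ifitm1 mean of 1.34 TPM in WT ex vivo was under that percentile, and its means in the other 3 groups (2.69 to 3.14 TPM) were above it. Ifitm3 in WT Treg exceeded 99.9% of these genes ex vivo and 99.8% after stimulation. Among all genes of the table, Ifitm2 in cKO ex vivo exceeded 98.3%, and in WT ex vivo 80.05%.

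**Figure D1:**
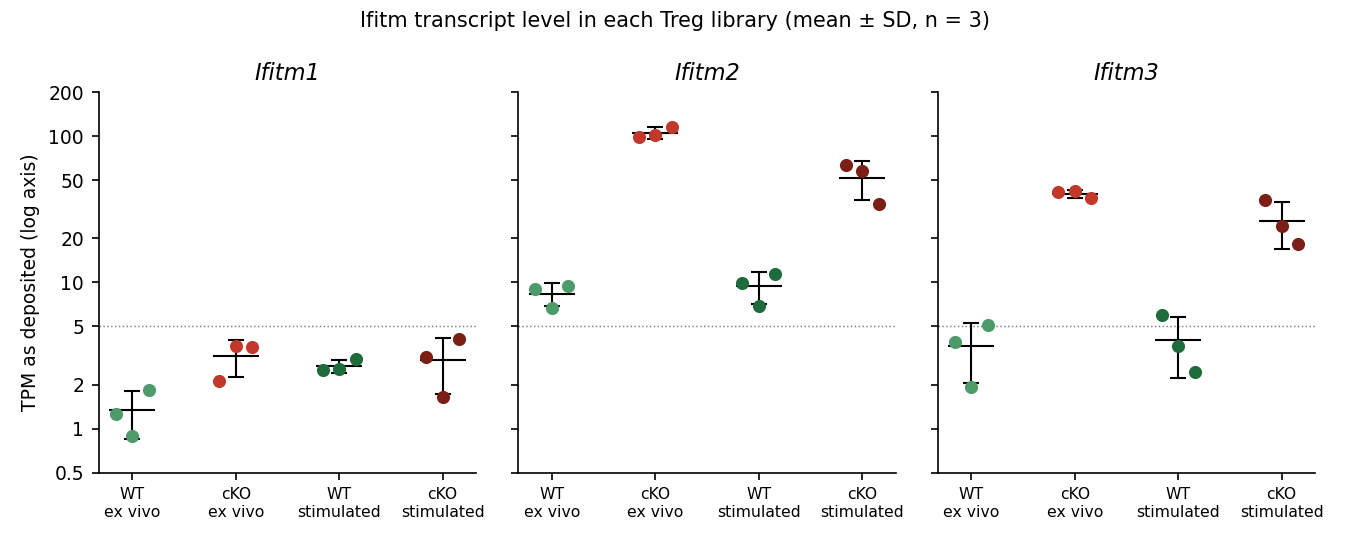
TPM as deposited (log axis) of Ifitm1, Ifitm2 and Ifitm3 in each of the 12 libraries; points are libraries, horizontal marks the group means and bars the SD (n = 3), and the dotted line is 5 TPM. For Ifitm2 and Ifitm3 every cKO library lies above every WT library of the same condition, while the groups of Ifitm1 lie between 0.896 and 4.09 TPM.

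Non-overlap of 3 against 3 libraries is common in this table. In deposited TPM 21.4% of the 13318 genes tested (2851) had all cKO ex vivo libraries above all WT ex vivo libraries, and 3.68% (490) did after stimulation. All cKO libraries lay below all WT libraries for 196 genes ex vivo and for 3614 after stimulation. At a limma adjusted p under 0.05 the ex vivo comparison called 482 genes (3.62%) higher in cKO and 222 (1.67%) lower, and the stimulated comparison 439 (3.3%) higher and 484 (3.63%) lower. These shares are the background of the counts below, and since the genotype contrasts chose the members nothing is read from them for the members. In order of the log2 difference Ifitm2 was number 1 and Ifitm3 number 2 ex vivo, and Ifitm3 was number 10 and Ifitm2 number 12 after stimulation.

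Compared with each other, the members made up different shares of a family total that itself differed between the groups. The 3 genes summed to 14.2, 9.51 and 16.4 TPM in the ex vivo WT libraries and to 141, 148 and 157 TPM in those of cKO. With stimulation the sums were 18.4, 13.2 and 16.8 TPM for WT against 103, 83.6 and 56.4 TPM for cKO. Shares within a library do not depend on the scaling between libraries. Ex vivo, Ifitm2 supplied 63.8 ± 6.35% of the sum in WT and 70.7 ± 2.71% in cKO (SD, n = 3 each here and below), and with stimulation 58.1 ± 8.32% and 63.7 ± 4.68%. Ifitm3 supplied 26.3 ± 5.52% (WT) and 27.2 ± 2.92% (cKO) ex vivo, then 24.9 ± 9.33% and 32.2 ± 3.29%. Ifitm1 supplied 9.88 ± 1.25% and 17.0 ± 3.04% in WT ex vivo and stimulated, but only 2.09 ± 0.525% and 4.08 ± 2.80% in cKO, the latter 2.49% without cKO stimulated replicate 3. As shares of reads, which are not per length, Ifitm1 made up 15.4% and 25.3% in WT and 3.43% and 6.52% in cKO.

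The balance between Ifitm2 and Ifitm3 overlapped between the groups. The ratio of Ifitm2 to Ifitm3 TPM was 2.54 ± 0.836 for WT and 2.62 ± 0.404 for cKO ex vivo (SD, n = 3 each), against 2.75 ± 1.68 and 2.00 ± 0.345 once stimulated. The group ranges overlapped, from 1.67 to 4.69 in WT stimulated to 1.73 to 2.39 in cKO stimulated. The stimulated WT libraries were at 1.67, 1.87 and 4.69, so their mean rests on replicate 3. The share of Ifitm1 was lower in cKO, where Ifitm2 and Ifitm3 were higher. Mean Ifitm1 itself was 1.34 TPM in WT and 3.14 TPM in cKO ex vivo, and 2.69 and 2.94 TPM after stimulation. The stimulated libraries overlapped, with cKO replicate 2 (1.65 TPM) below every WT library.

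**Figure D2:**
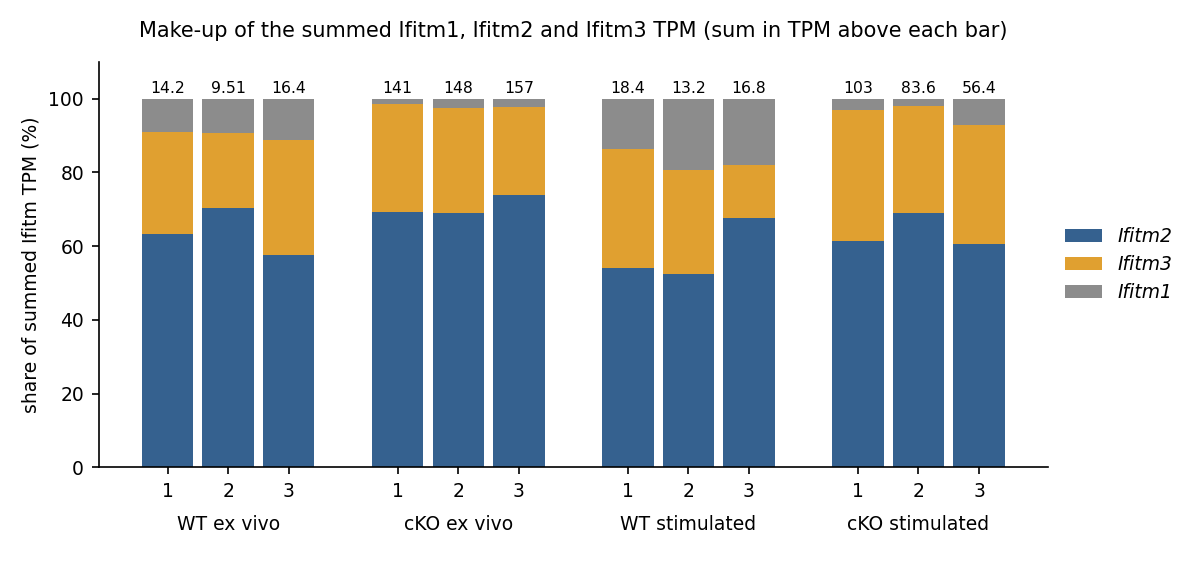
Share in percent of Ifitm2, Ifitm3 and Ifitm1 in the summed TPM of the 3 genes, one bar for each library (replicates 1 to 3 of each group), with the sum in TPM above the bar. Ifitm2 is the main component in every library, and the Ifitm1 share is 8.92% to 19.4% in WT libraries and 1.496% to 7.25% in cKO libraries.

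Stimulation through CD3 and CD28 was tested within each genotype. No group was cultured without the antibodies, so the effect of the antibodies and that of 4 h of culture cannot be told apart. These tests share libraries with the genotype contrasts that chose the members. In WT Treg 1688 of 13318 genes (12.7%) rose and 2574 (19.3%) fell, and in cKO Treg 2305 (17.3%) rose and 3530 (26.5%) fell (limma, adjusted p under 0.05). In WT Treg Ifitm2 did not pass the threshold. The stimulated minus ex vivo difference was -0.04 for Ifitm2 (log2, SE 0.14, 95% interval -0.34 to 0.26, limma adjusted p 0.842), an interval that leaves room for a change in either direction. Ifitm3 averaged under 5 TPM in both WT groups, on 12 to 46 reads per library, and entered the fit only through the cKO groups where it is high, so its WT difference of -0.03 (SE 0.27) is given without a test.

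In cKO Treg Ifitm2 fell after stimulation. Scaled to the other libraries it stood at 92.9, 86.7 and 105 ex vivo and at 59.9, 64.7 and 46.7 after stimulation, without overlap. The difference was -0.73 (log2, SE 0.14, interval -1.03 to -0.43, limma adjusted p 0.00175). The ex vivo cKO values, the baseline here, took part in the choice of Ifitm2. Such a choice can by itself favour a fall, so the p does not stand apart from it. All 20 alternative fits, made on these libraries, also called the fall, with differences from -0.55 to -1.27 and adjusted p from 0.00155 to 0.01003. The largest difference came with a filter at 1 TPM. Even so, every stimulated cKO library held more Ifitm2 than every WT library.

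Ifitm3 did not pass the threshold in cKO. It entered the fit only through the cKO groups, whose values also took part in choosing it. The stimulated minus ex vivo difference was -0.34 (log2, SE 0.27, interval -0.94 to 0.27, limma adjusted p 0.336), and over 20 alternative fits it ran from -0.87 (1 TPM filter) to -0.19 (without cKO stimulated replicate 3) and the adjusted p from 0.0975 to 0.658. In deposited TPM the cKO groups did not overlap (18.2 to 36.5 against 37.6 to 42.1 TPM), but in scaled TPM they did (24.8 to 34.6 against 33.9 to 39.3). For the 3 genes summed the difference was -0.58 (SE 0.14, limma adjusted p 0.00712) in cKO and 0.087 (SE 0.14, adjusted p 0.672) in WT. Ifitm2 supplied most of that sum in both genotypes, so these values mostly repeat Ifitm2 and test neither Ifitm3 nor Ifitm1. For Ifitm1 the untested differences were 0.55 (SE 0.30) in WT and 0.16 (SE 0.30) in cKO. The cKO difference turned to -0.26 with the 1 TPM filter and -0.25 with no filter, and ran from -0.14 to 0.40 with single libraries left out.

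Whether stimulation acts differently in the genotypes is the difference of these differences, which is also the difference of the contrasts that chose the members and so has no test here. It was -0.69 (log2, SE 0.19) for Ifitm2, -0.31 (SE 0.39) for Ifitm3 and -0.39 (SE 0.42) for Ifitm1. All of them point to a smaller cKO minus WT difference after stimulation, with SEs larger than the value for Ifitm3 and Ifitm1. In bulk RNA, fewer cells that carry a transcript and less of it per cell cannot be told apart.

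The remaining dispanins, the wider family of these proteins, were low throughout. Of 9 listed symbols 6 were in the table, and none reached 5 TPM in any group. The cluster neighbours Ifitm5, a bone protein gene, and Ifitm6 had group means of 1.92 to 3.25 TPM and 0.951 to 2.75 TPM. Ifitm7 had 1.21 to 1.86, Tmem91 1.58 to 3.27 and Tmem233 0.912 to 2.09 TPM, while Prrt2 stayed under 1 TPM.

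The genes around the cluster did not move with Ifitm2 and Ifitm3. Within 250 kb of the cluster 31 other genes start, 16 of which were tested. None was called in the genotype comparison ex vivo, where their differences ran from -0.08 to 0.66 with a median of 0.07. After stimulation none was called higher and 1 lower, namely Sigirr, an inhibitor of interleukin-1 and Toll-like receptor signalling, with -0.51 (log2, limma adjusted p 0.00184). The nearest tested neighbours within 60 kb were Athl1, 13.4 kb from the cluster, with 0.09 ex vivo and -0.11 after stimulation, and B4galnt4, 50.5 kb away, with 0.04 and 0.02. Neither was called. Cox8b, Nlrp6, Ifitm5, Ifitm6 and Gm17387 also start within 60 kb and were too low to test.

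**Figure D3:**
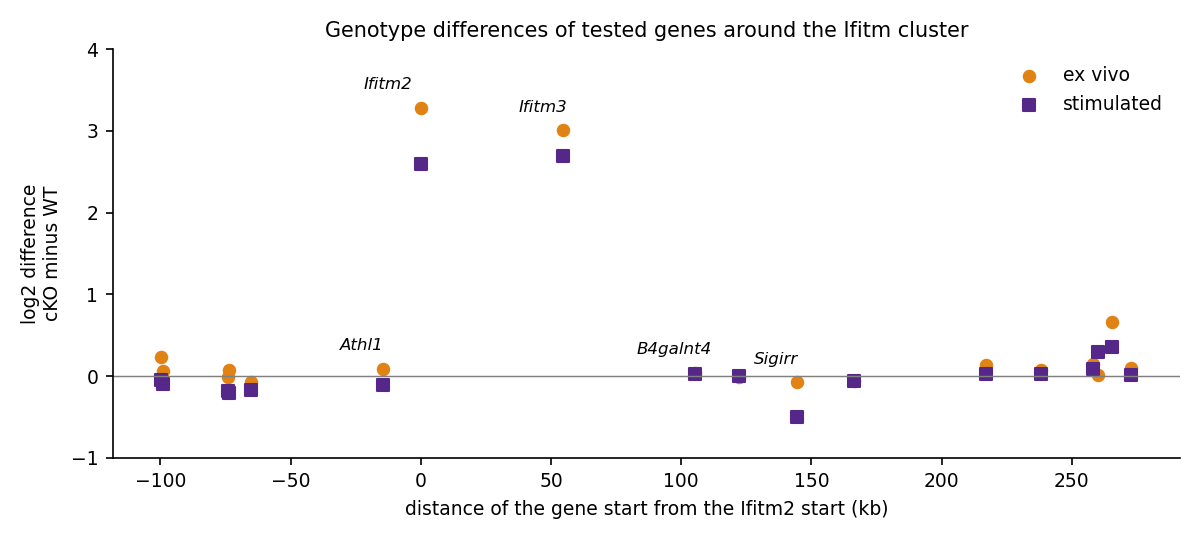
log2 difference cKO minus WT of the tested genes around the Ifitm cluster against the distance (kb) of each gene's start from the Ifitm2 start, ex vivo (circles) and stimulated (squares). Ifitm2 and Ifitm3 lie between 2.59 and 3.28, and the 16 other genes between -0.51 and 0.66.

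Interferons are the usual inducers of these genes, so the interferon genes were read next. Of 20 listed interferon symbols 18 were in the table and only Ifng, the gene for interferon-gamma, reached 5 TPM in any group. Ex vivo, Ifng averaged 20.9 ± 1.59 TPM for WT and 79.5 ± 22.9 TPM for cKO (SD, n = 3 each), higher in cKO by 1.60 (log2, SE 0.26, limma adjusted p 0.00616). Stimulated libraries averaged 4.45 ± 1.65 and 26.4 ± 13.6 TPM, higher in cKO by 2.54 (SE 0.26, adjusted p 0.000325). After stimulation Ifng fell by 2.24 in WT (adjusted p 0.000106), and it fell by 1.30 in cKO (adjusted p 0.00277). The ex vivo genotype call of Ifng was not made with the 1 TPM filter or with no filter. The other interferon genes in the table had group means of at most 3.37 TPM.

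Receptors and signalling molecules showed a mixed picture. Of 23 tested genes ex vivo 3 were called higher in cKO (Irf4, Irf5 and Socs3, 13.0%) and 1 lower, and their median difference was 0.07, beside -0.01 for all genes tested. The gene called lower was Ifngr1, the ligand-binding chain of the interferon-gamma receptor, at 199 ± 61.0 TPM in WT and 116 ± 9.30 TPM in cKO (log2 difference -0.97, adjusted p 0.00498). Irf4, a transcription factor induced by T cell receptor signals, rose by 1.12 (adjusted p 0.00123). Irf1, a transcription factor induced by interferon, differed by 0.10 (adjusted p 0.745), Irf7 by -0.50 (adjusted p 0.149), Irf9 by -0.08 (adjusted p 0.844) and Ifnar1, a chain of the type I receptor, by 0.07 (adjusted p 0.862), none of them called. Over the alternatives 0 to 3 of the list were called higher and 0 to 2 lower ex vivo, none with the 1 TPM filter or with no filter.

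After stimulation 9 of the 23 (39.1%) were called higher in cKO and 1 lower. The largest was Socs1, a feedback inhibitor of interferon signalling, at 55.5 ± 17.3 TPM in WT and 212 ± 82.2 TPM in cKO, higher by 2.18 (adjusted p 0.000285). Irf8 was higher by 1.29 (adjusted p 0.00105), Usp18, which dampens type I interferon signalling, by 1.08 (adjusted p 0.00582), Irf1 by 0.85 (adjusted p 0.00151) and Irf7 by 0.67 (adjusted p 0.0447). Ifnar1 was lower (-0.72, adjusted p 0.0105), and Irf9 and Ifngr1 were not called (0.24 and -0.15, adjusted p 0.285 and 0.586). The median was 0.10, beside -0.03 for all genes, and it turned to -0.17 in TPM as deposited and to -0.12 with the 1 TPM filter, which called none of these genes. Without scaling the median of all genes moves as well. The list median minus that of all genes ran from -0.09 to 0.24 over the 20 alternative fits.

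Other interferon-stimulated antiviral genes were counted next. Of 62 listed symbols 58 were in the table and 49 were tested. Ex vivo 2 of 49 (4.08%) were called higher in cKO, close to the 3.62% of all genes, the viral RNA sensor Ifih1 (0.79, adjusted p 0.00513) and Ube2l6, the conjugating enzyme of ISG15 (0.92, adjusted p 0.00173). Another 5 (10.2%) were called lower, led by Ly6c1 (-1.11, adjusted p 0.00147) and Samd9l (-0.64, adjusted p 0.00147), and the median difference was -0.04, beside -0.01 for all genes. Isg15, the ubiquitin-like modifier, differed by 0.18 (adjusted p 0.756), Ifit1 by -0.09 (adjusted p 0.861) and Ifit3 by -0.40 (adjusted p 0.498). Over the alternatives 0 to 4 were called higher and 0 to 5 lower, with 0 higher and 1 lower at the 1 TPM filter and 2 higher and 0 lower in TPM as deposited. Mx1, an antiviral GTPase, stayed under 5 TPM, at 3.59 ± 0.250 TPM in WT and 4.74 ± 1.74 TPM in cKO ex vivo.

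After stimulation 22 of the 49 (44.9%) were called higher in cKO and 2 lower, and the median was 0.50. The largest were Ly6a (1.49, adjusted p 0.0025), Ube2l6 (1.43, adjusted p 0.000112), Parp12 (1.25, adjusted p 0.000557) and Oas1a, which makes the activator of RNase L (1.23, adjusted p 0.00375). Isg15 (-0.22, adjusted p 0.574), Ifit1 (0.55, adjusted p 0.0882) and Ifit3 (0.69, adjusted p 0.143) were not called. The calls rest on the scaling and the filter, since 3 of 49 were called higher in TPM as deposited and 0 of 57 with the 1 TPM filter, while the median stayed above that of all genes in each of the 20 alternative fits.

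Many antiviral genes fell with stimulation in WT. Of the 49, 33 (67.3%) fell and 1 rose, with a median of -0.61, beside 0.00 for all genes, and whether Ifitm2 and Ifitm3 differ from them in this was not tested. Isg15 fell by 0.74, from 15.4 ± 3.98 to 9.99 ± 0.619 TPM (adjusted p 0.0256), and Ifit1 fell by 1.10, from 8.89 ± 1.62 to 4.34 ± 1.59 TPM (adjusted p 0.000765). Over the alternatives 14 to 34 of these genes fell in WT. In cKO 16 of 49 (32.7%) fell and 8 rose, with a median of -0.18, and over the alternatives 12 to 29 fell and 0 to 10 rose (29 and 0 with the 1 TPM filter).

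**Figure D4:**
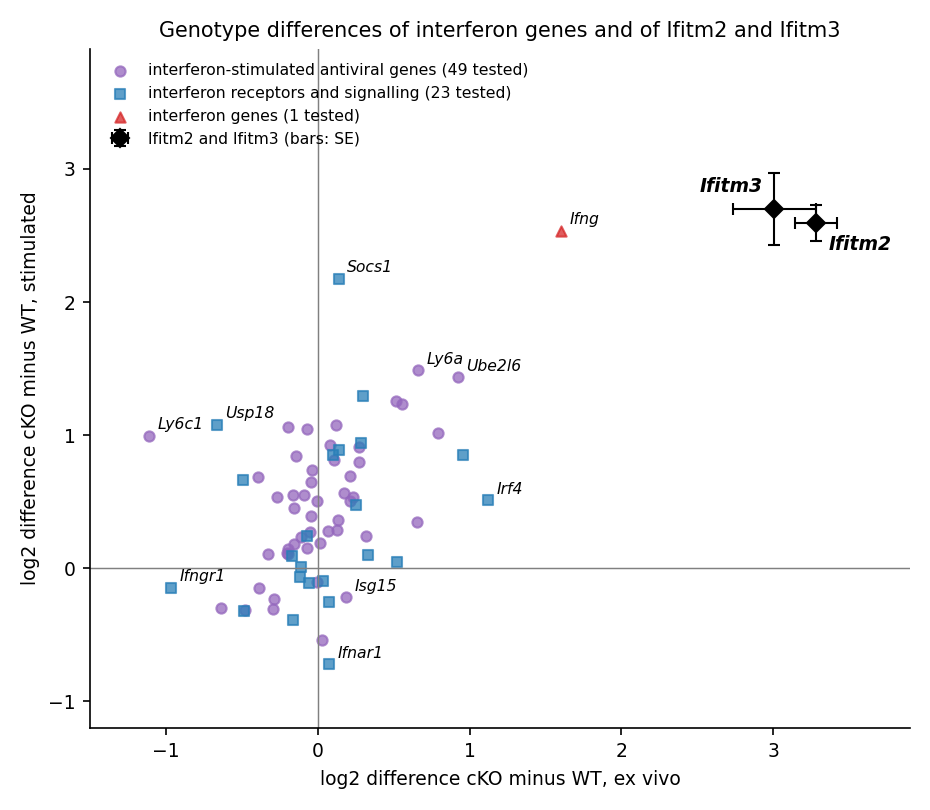
log2 difference cKO minus WT ex vivo (x axis) and after stimulation (y axis) of the tested interferon-stimulated antiviral genes (49), interferon receptor and signalling genes (23) and Ifng, with Ifitm2 and Ifitm3 as diamonds (bars, SE). Most interferon-stimulated genes lie near 0 on the x axis, Ifng lies at 1.60 and 2.54, and Ifitm2 and Ifitm3 lie at 3.28 and 2.59 and at 3.01 and 2.70.

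Genes for partners and modifiers of IFITM proteins were counted in the same way. Of 16 listed genes 15 were tested, and ex vivo 2 (13.3%) were called higher in cKO, both of them tetraspanins, namely Cd81 (0.58, adjusted p 0.0316) and Cd9 (0.53, adjusted p 0.0305). The palmitoyltransferase gene Zdhhc20, whose product attaches the lipid that IFITM3 needs for antiviral activity, was called lower ex vivo (-0.44, adjusted p 0.0197) and after stimulation (-0.42, adjusted p 0.0201), where it was the only gene of the list called. Zmpste24, which works with IFITM proteins at membranes, was not called in either (adjusted p 0.99 ex vivo, and a difference of -0.17 with adjusted p 0.298 after stimulation). After stimulation of cKO Treg 8 of 15 (53.3%) fell, Zmpste24, Zdhhc20 and Cd81 among them, and 3 rose, and in WT 3 fell and 1 rose. Under the alternatives 5 to 9 fell and 0 to 3 rose in cKO, while 0 to 3 fell and 0 to 2 rose in WT. With the 1 TPM filter and in TPM as deposited none of the genotype calls was made, and ex vivo none was made without cKO ex vivo replicate 1.

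Effector Treg genes were called in part. Ex vivo 11 of 22 tested genes were called higher in cKO and none lower, with a median of 0.54, and after stimulation 7 of 22 (31.8%), with a median of 0.32. Ebi3, a subunit of interleukin-35, rose by 1.19 ex vivo (adjusted p 0.00495), and the chemokine receptor Cxcr3 by 1.00 (adjusted p 0.000278). Of 13 genes of central Treg 3 fell ex vivo, Klf2, which controls lymphocyte trafficking, the most (-1.44, adjusted p 0.000483). After stimulation 7 of 13 were lower in cKO and 1 higher, led by Tcf7 (-1.30, adjusted p 0.000255). Over the alternatives 0 to 4 of them were called lower ex vivo and 3 to 9 after stimulation, with 0 and 3 at the 1 TPM filter. The 1 TPM filter called none of the effector genes in either comparison, TPM as deposited called 6 ex vivo and 0 after stimulation, and 5 were called ex vivo without cKO ex vivo replicate 1 or without replicate 3. Whether effector cells hold more Ifitm2 and Ifitm3 than other Treg was not tested.

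The libraries carried the markers of Treg and few of other cells. All 7 Treg and T cell markers had group means above 5 TPM and summed to 913 to 2782 TPM per library. None of the monocyte and macrophage, granulocyte, NK or erythroid markers reached a group mean of 5 TPM, and the monocyte and macrophage markers summed to 10.9 to 14.4 TPM in WT ex vivo and 11.2 to 20.2 TPM in cKO ex vivo. Of 6 B cell markers only Ighm and Cd79b reached 5 TPM, and ex vivo their list summed to 253 to 327 TPM for WT against 399.6 to 472 TPM for cKO. Stimulated libraries had 100.6 to 144 TPM (WT) and 83.1 to 117 TPM (cKO). In deposited TPM the B cell list was thus higher in every cKO ex vivo library, along with Ifitm2 and Ifitm3, and overlapped between the genotypes after stimulation. Most of the sum is Ighm. After scaling neither tested marker was called ex vivo, with Ighm at 0.27 (adjusted p 0.23) and Cd79b at 0.70 (adjusted p 0.112), although Cd79b averaged 5.94 TPM in WT and 11.9 TPM in cKO without overlap. Cd79b was called higher in stimulated cKO (4.08 ± 2.23 against 6.99 ± 1.84 TPM, log2 difference 0.96, adjusted p 0.0283), though not with the 1 TPM filter or in TPM as deposited, and Ms4a1, too low to test, was higher in every stimulated cKO library (means of 1.29 and 2.58 TPM). Dendritic cell markers summed to 32.2 to 37.2 TPM in WT ex vivo and 36.9 to 45.3 TPM in cKO ex vivo and Bst2, itself an interferon-stimulated gene, was the only one of them to reach a group mean of 5 TPM. Cd8b1 and Pecam1 also reached it, and Col1a1 did in cKO stimulated. The part of other cells in the Ifitm levels was not tested.

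Finally, the genes whose pattern over the 12 libraries was most like that of Ifitm2 and Ifitm3 were listed by the mean absolute difference of centred log2 values. Ifitm2 and Ifitm3 were nearest to each other, at 0.31, which is a description only since both were chosen on the same contrasts in these libraries. The next 4 were the same genes for both, namely Axl, Wisp1, Tmem176a and Ctnnd1, at 0.45 to 0.59. Axl, a receptor tyrosine kinase, averaged 10.4 TPM in WT ex vivo, with a cKO minus WT log2 difference of 2.34, and 11.3 and 29.2 TPM in stimulated WT and cKO. Wisp1, a secreted matricellular protein gene, had 2.29 and 22.2 TPM ex vivo and 5.62 and 27.5 TPM after stimulation. Tmem176a had 2.91 and 21.3 TPM and then 3.06 and 8.69 TPM, and Ctnnd1, the gene for p120 catenin, 2.94 and 16.5 TPM and then 4.61 and 23.1 TPM. None of these 4 is on the lists of interferon genes above. Those lists are a selection, so absence from them does not show that a gene is unresponsive to interferon.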

How the data were processed

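RNA of 12 Treg libraries (4 groups of 3, individual mice) was sequenced as paired 51-base reads. The authors mapped reads to mm9 with STAR 2.6.0c, counted them by strand with HTSeq 0.6.1 on Ensembl 67, removed rRNA genes and deposited TPM, here treated as a signal that sums to 1000000 per library. The same deposited table has a column of log2 values, which the authors made by adding the TPM of 1 read, and this offset gave whole reads for 99.9977% of values (tolerance 0.01). The authors' own comparison table was not used. From these recovered reads come the depths, 8208659 to 20247649 per library, and no count model was run because the values are TPM.

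TPM were scaled by a trimmed mean of M-values (30% of M and 5% of A trimmed) over the 13318 genes whose mean reached 5 TPM in at least 1 group. limma 3.58.1 in R 4.3.3 was fitted to log2(scaled TPM + 1) over all 12 libraries with group as the only term and a mean-variance trend, with two-sided p-values adjusted by Benjamini-Hochberg over all genes of a comparison. Fold changes on this scale understate those of low genes. The test was tested on simulated data first. Members and lists were chosen with earlier results of these data known.

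Named genes were the members, dispanins with a mean of at least 1 TPM, genes within 60 kb of the cluster or called within 250 kb, up to 4 called genes of a list with the largest genotype difference, a set of interferon genes named whatever their result (1 of them is not reported here), and the 5 genes most like each member. Cd81, Cd9, Irf5 and genes in small counts were named to identify them. Alternatives were filters at 1 TPM or none, a pseudocount of 0.1, TPM as deposited, median of ratios, no trend, only the groups compared, the replicate block, each library left out and the 3 genes summed. Sequence work used Python 3.11.15, Biopython 1.88 and the mm9 genome.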

Additional observations from a re-analysis of the deposited data

How the results depend on the processing

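Differences here are log2. The groups share replicate numbers, so the replicate block was fitted as an alternative. Deviations from the group means correlated at -0.21 to 0.26 between libraries of the same number (18 pairs, median 0.0022) and at -0.19 to 0.22 between different numbers, so the numbers were not taken as pairs. With the replicate block 516 genes were called in the genotype comparison ex vivo and 630 after stimulation, against 704 and 923, and the fall of Ifitm2 in cKO was called as before (-0.73, adjusted p 0.00502).

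Scaling and filter moved sizes more than directions. In TPM as deposited the cKO minus WT difference of Ifitm2 was 3.51 ex vivo and 2.32 after stimulation, and the latter was 2.29 with the 1 TPM filter and with no filter. The stimulation effect in WT, never past the threshold for Ifitm2 and given without a test for Ifitm3, turned positive in TPM as deposited (Ifitm2 0.14, Ifitm3 0.12) and for the 3 genes summed (0.087). It ran from -0.10 to 0.055 for Ifitm2 and from -0.26 to 0.27 for Ifitm3 with single libraries left out, and was positive for both without WT ex vivo replicate 3 (0.055 and 0.22), for Ifitm2 without WT stimulated replicate 2 (0.034) and for Ifitm3 without WT stimulated replicate 3 (0.27). In cKO the difference of the sum was -0.58, and most of that sum was Ifitm2. The sum, of which Ifitm1 is a small part, differed by 3.18 ex vivo and 2.51 after stimulation between the genotypes. Ifitm1 itself changed by -0.26 with the 1 TPM filter and -0.25 with no filter in stimulated cKO. The difference of differences was -0.995, -1.01 and -1.19 for Ifitm2 (1 TPM filter, no filter, TPM as deposited), -0.77 for Ifitm3 and -0.77 for Ifitm1 in TPM as deposited (-0.62 and -0.64 with the 1 TPM filter), and -0.67 for the sum. With single libraries left out it ran from -0.60 to -0.069 for Ifitm3, from -0.69 to -0.14 for Ifitm1 and from -0.81 to -0.51 for Ifitm2, and the stimulated genotype difference of Ifitm2 from 2.47 to 2.76, the upper values of Ifitm2 coming without cKO stimulated replicate 3.

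Counts over all genes moved more. The genotype comparison ex vivo called 57 genes with the 1 TPM filter, 56 with no filter and 273 in TPM as deposited (95.2% of them higher, against 68.5%), and 324 to 740 with single libraries left out, where each cKO ex vivo library and WT ex vivo replicate 3 lowered it by over 1.5 times. After stimulation it called 68, 68 and 306 (22.5% higher, against 47.6%), 553 with only the groups compared, and 398 to 1057 with single libraries left out, where each stimulated library except cKO stimulated replicate 2 lowered it by over 1.5 times. Stimulation in WT called 1838, 1694 and 1943 genes (16.5%, 17.9% and 60.5% higher, against 39.6%), and in cKO the share called higher fell from 39.5% to 12.8%, 12.7% and 11.9%. The cause was not tested. Depth limits Ifitm1 and the WT values of Ifitm3 most, at 9 to 46 reads a library.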
